A study of Mus musculus with 43 samples.

Results

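The RNA of 4 Ly6 genes, Ly6a, Ly6c1, Ly6c2 and Ly6e, was followed in endothelial cells sorted from the brains of 7 inbred mouse strains. The genes were taken by symbol from a count table of 54532 genes and each symbol matched 1 row. All 43 libraries came from 2-month-old mice, and cells without CD45 and CD11b but with CD31 were sorted from dissected cortex (21 libraries) or hippocampus (22 libraries). The strains fell into a long-inbred group of 31 libraries, with C57BL/6J (6), DBA/2J (5), 129S1/SvImJ (9), NOD/ShiLtJ (6) and A/J (5), and a recently wild-derived group of 12, with CAST/EiJ (6) and WSB/EiJ (6). Of the libraries 16 were from female and 27 from male mice, and no mouse carried a transgene or received a treatment according to the labels. The titles add the word high or low, which the sources do not define, and 15 of 16 female and 14 of 27 male libraries were titled high. The labels do not tie libraries to mice, so cortex and hippocampus of a mouse may both be among them, and p-values measure only the spread between libraries.

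Ly6 proteins are small, cysteine-rich proteins of the Ly6/uPAR fold, most of them held on the outer cell surface by a glycosylphosphatidylinositol (GPI) anchor. Ly6a encodes LY6A, also known as Sca-1, a marker of mouse blood stem cells and the surface receptor through which the engineered viral capsids AAV-PHP.B and AAV-PHP.eB enter mouse brain endothelium. Its alleles differ between inbred strains. Ly6c1 and Ly6c2 encode near-identical LY6C proteins, known as surface markers of monocytes and, for Ly6c1, of mouse endothelium. Ly6e encodes an interferon-inducible member that modulates the entry of several viruses.

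The genes lie together on chromosome 15 of the mm10 assembly. From the start of the cluster these were Ly6e (ENSMUSG00000022587, chr15:74955051-74959905, plus strand), Ly6a (ENSMUSG00000075602, chr15:74994877-74998031, minus strand), Ly6c1 (ENSMUSG00000079018, chr15:75044018-75048830, minus strand) and Ly6c2 (ENSMUSG00000022584, chr15:75108158-75111970, minus strand) in the GENCODE annotation. The coding sequences of Ly6c1 and Ly6c2 are shown because the split of reads between these genes carries much of what follows. Each spans 3 coding exons and 396 bases with its stop codon in the principal transcript of the C57BL/6J reference. The first 300 bases from the start codon are printed 5′ to 3′, and capitals mark the 7 bases of this stretch at which they differ.
Ly6c1: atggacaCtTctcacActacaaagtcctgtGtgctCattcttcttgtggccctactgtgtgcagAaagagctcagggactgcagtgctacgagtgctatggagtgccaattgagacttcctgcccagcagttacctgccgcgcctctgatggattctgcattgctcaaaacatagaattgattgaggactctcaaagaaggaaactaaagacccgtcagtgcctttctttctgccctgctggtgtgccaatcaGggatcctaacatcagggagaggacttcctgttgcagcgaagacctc
Ly6c2: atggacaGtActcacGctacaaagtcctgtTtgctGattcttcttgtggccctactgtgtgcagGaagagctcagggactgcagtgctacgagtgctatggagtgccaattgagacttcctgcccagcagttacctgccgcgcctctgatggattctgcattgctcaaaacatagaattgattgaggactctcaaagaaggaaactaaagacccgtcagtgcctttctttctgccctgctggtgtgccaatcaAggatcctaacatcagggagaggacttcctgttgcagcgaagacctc
Over the whole coding sequence 387 of 396 bases were identical (97.7%), and the longest identical run was 188 bases. Ly6a shared 83.8% of its aligned coding bases with Ly6c1 and 83.6% with Ly6c2, whereas Ly6e shared 48.7% with Ly6a and 43.8% with Ly6c1. Of the 100-base windows of the Ly6c1 transcripts 10.1% were found unchanged in transcripts of another gene, compared to 5.81% for Ly6c2, 1.45% for Ly6a and 0 of 4559 windows for Ly6e. Within the coding part, 89 of the 297 windows of Ly6c1 were also in Ly6c2. How reads matching both genes were counted is not given in the sources used here, so counts of Ly6c1 and Ly6c2 are uncertain to that extent, and reads of all strains were aligned to the C57BL/6J genome.

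The promoters were less alike than the coding parts. They are printed below, 250 bases before and 50 after the start of the gene on the minus strand, from RefSeq (GRCm38.p6), at chr15:75048788-75049087 for Ly6c1 and chr15:75111922-75112221 for Ly6c2. Capitals mark matches to a motif.
Ly6c1: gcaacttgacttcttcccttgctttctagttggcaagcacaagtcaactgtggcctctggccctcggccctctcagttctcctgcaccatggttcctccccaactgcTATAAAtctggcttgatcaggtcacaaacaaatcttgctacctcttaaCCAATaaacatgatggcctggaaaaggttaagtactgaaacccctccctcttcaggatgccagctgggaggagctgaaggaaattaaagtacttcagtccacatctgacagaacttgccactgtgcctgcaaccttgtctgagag
Ly6c2: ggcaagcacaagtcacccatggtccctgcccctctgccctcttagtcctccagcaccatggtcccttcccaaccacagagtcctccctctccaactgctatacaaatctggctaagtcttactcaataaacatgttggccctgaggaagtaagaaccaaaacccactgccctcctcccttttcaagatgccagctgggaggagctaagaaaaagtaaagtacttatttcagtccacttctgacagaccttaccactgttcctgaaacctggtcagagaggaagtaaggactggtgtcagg
Of 267 aligned bases 204 were identical (76.4%). On either strand, TATAAA was in the Ly6c1 window and in 13.6% of 32851 promoters of this length, and CCAAT was in the Ly6c1 window and in 37.4% of all promoters. Neither was in the Ly6c2 window. The interferon-gamma-activated type motif TTCNNNGAA, which reads the same on both strands, was in neither window and in 8.30% of promoters. A match is a match of letters only.

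The libraries held between 1626534 and 49372356 counts (median 5790701), and 1.59 to 29.3% of these fell on 3 genes resembling ribosomal RNA. Female libraries were deeper than male libraries (median 21242058 against 5257353 counts) and held a smaller share of those genes (3.12% against 18.7%). Sex was thus hard to tell apart from depth or from this share. Depth overlapped in part, as female C57BL/6J replicate 2 and WSB/EiJ replicates 1 and 2 held 3892336, 4309378 and 2731954 counts. The endothelial markers Pecam1, Cdh5 and Cldn5 were present in every library, with medians of 857, 904 and 1028 CPM (counts scaled to library size). The 10 endothelial markers summed to between 7821 and 14930 CPM, and 10 leukocyte markers to between 0 and 14.5 CPM, with Nkg7 at 0 in 43 and S100a8 in 41 libraries. Markers of neighbouring cells were also present, with 6 pericyte markers summing to between 1642 and 9284 CPM (median 4189) and 6 astrocyte markers to between 1059 and 19337 CPM (median 3263). Levels are given as CPM after scaling by the trimmed mean of M-values, and tests are edgeR quasi-likelihood tests with p-values adjusted over all genes tested. In a bulk sample, fewer cells expressing a gene and less RNA per cell cannot be told apart.

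Of the 4 genes, Ly6c1 had the highest mean level per kilobase of exon and Ly6c2 the lowest. In CPM the mean was highest for Ly6e, at 349 beside 332 for Ly6c1. The length used was that of all annotated exons of a gene merged. It was 1677 bases for Ly6c1, 1205 for Ly6a, 3784 for Ly6e and 2740 for Ly6c2. The place of Ly6e below Ly6c1 and Ly6a rests on this length, and which transcripts were present was not tested. Per kilobase of exon, the mean over 43 libraries was 198 ± 124 CPM (SD) for Ly6c1, 103 ± 64.1 for Ly6a, 92.3 ± 41.4 for Ly6e and 5.24 ± 10.9 for Ly6c2. All 4 genes passed the filter on low counts, but 23 of 43 libraries held at most 3 counts of Ly6c2. The order of levels depended on the strain, and each gene had its own pattern.

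**Figure D1:**
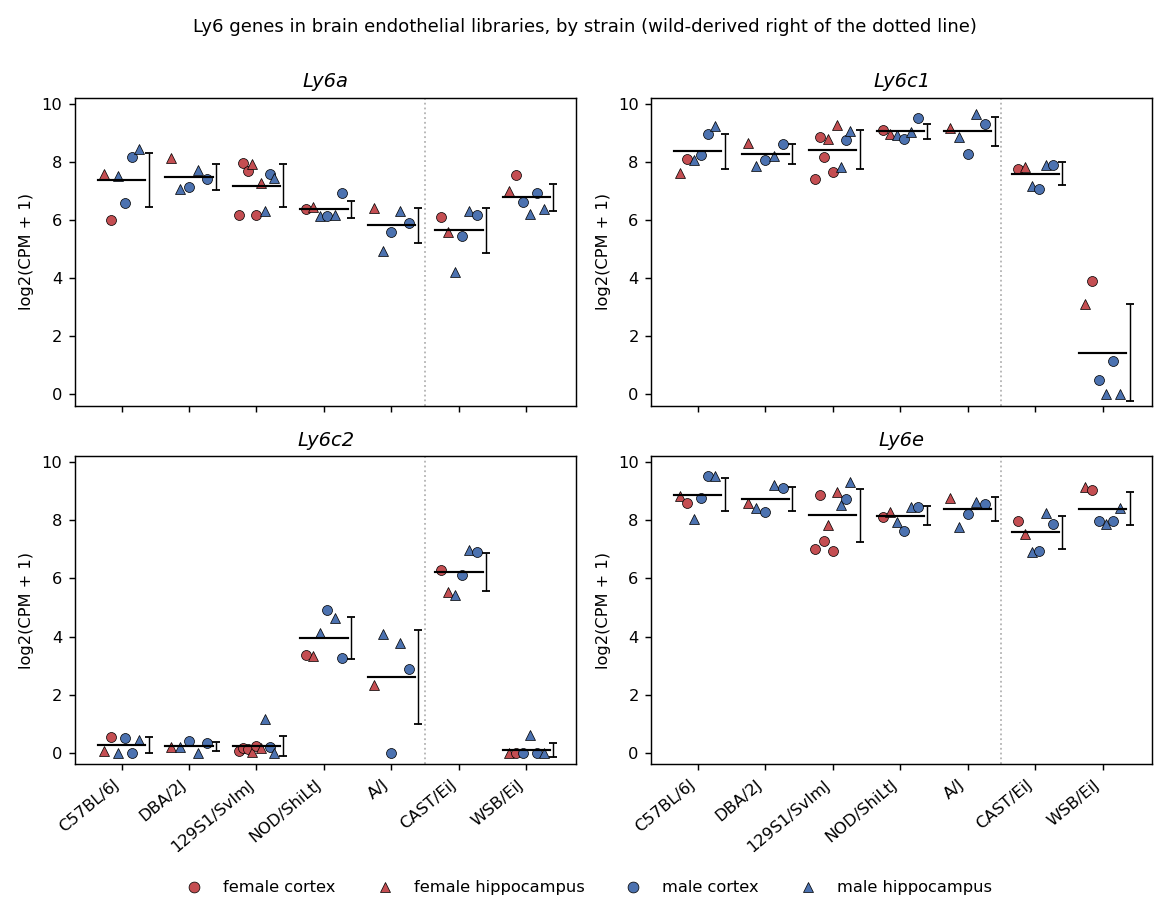
Level of each Ly6 gene in every library, as log2(CPM + 1), by strain. Circles are cortex and triangles hippocampus, red is female and blue male, horizontal lines are strain means and the bars beside them the SD. Ly6c1 lies at 13.8 CPM or below in the 6 WSB/EiJ libraries and at 133 CPM or above elsewhere, and Ly6c2 is high in CAST/EiJ and intermediate in NOD/ShiLtJ and A/J.

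Between the strains, Ly6a, Ly6c1 and Ly6c2 differed and Ly6e did not pass the test. The F test over 7 strains gave an adjusted p of 2.1e-05 for Ly6a, 2.3e-17 for Ly6c1, 3.2e-19 for Ly6c2 and 0.0754 for Ly6e (edgeR), where 2.68% of the 29120 genes tested passed. Of 21 pairs of strains, 6 passed for Ly6a, 8 for Ly6c1, 12 for Ly6c2 and 1 for Ly6e, whereas 0.45% of all tests of a gene in a pair did. The libraries of 3, 9, 10 and 1 of these pairs did not overlap, compared to 0.954% of all genes and pairs. Pericyte markers also differed between strains, and 4 of 6 passed the strain test. Their summed level was 1642 to 2628 CPM in CAST/EiJ, 4403 to 9284 CPM in WSB/EiJ and 5023 to 8149 CPM in NOD/ShiLtJ, and 2251 to 6916 CPM in the remaining strains. Of 10 endothelial markers 3 passed the strain test, and of 6 astrocyte markers 2. Their part in the results by strain and origin was not tested.

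Reads counted to Ly6c1 were close to absent in WSB/EiJ. Reads of this strain were aligned to the C57BL/6J genome, and whether this lowered the counts was not tested. The 4 male WSB/EiJ libraries held 0, 0, 2 and 3 counts (0, 0, 0.402 and 1.21 CPM), and the 2 female libraries held 31 and 32 counts (7.55 CPM in hippocampus and 13.8 CPM in cortex). Both female libraries were higher than the 4 male libraries of this strain, and all 6 lay below every library of every other strain. Ly6c1 was 1 of 11 among 29120 genes (0.0378%) for which the WSB/EiJ libraries did not overlap with the remaining 37. In all 4 male libraries the count was at or under 3, the upper limit that a count of 0 allows. Against 3 counts in each of these libraries, Ly6c1 was at least 143.6-fold lower in male WSB/EiJ than the male mean of CAST/EiJ, at least 226-fold lower than that of DBA/2J and at least 420-fold lower than that of A/J. Over all libraries the fitted log2 difference from WSB/EiJ to the other strains ran from -5.65 against CAST/EiJ (SE 0.46, adjusted p = 2.1e-15) to -7.13 against A/J (SE 0.49, adjusted p = 1.1e-18).

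In the other strains every library held 133 CPM of Ly6c1 or more. Libraries ran from 197 to 597 CPM in C57BL/6J (median 287), from 169 to 610 in 129S1/SvImJ (median 434), from 441 to 729 in NOD/ShiLtJ (median 509) and from 133 to 239 in CAST/EiJ (median 219). The 5 DBA/2J libraries held 232, 270, 291, 388 and 400 CPM, and the 5 A/J libraries held 310, 465, 573, 626 and 792 CPM. CAST/EiJ was thus second lowest and did not overlap with NOD/ShiLtJ or A/J. Its log2 difference was -1.43 from NOD/ShiLtJ (SE 0.36, adjusted p = 0.0453) and -1.48 from A/J (SE 0.38, adjusted p = 0.0455), and neither DBA/2J, C57BL/6J nor 129S1/SvImJ differed from CAST/EiJ beyond the test's threshold. Among the 5 long-inbred strains alone, the strain test gave an adjusted p of 0.38 for Ly6c1.

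Ly6c2 showed a different order. It was highest in CAST/EiJ, with libraries between 42.4 and 126 CPM (median 72.6). NOD/ShiLtJ libraries held 8.64 to 29.5 CPM (median 12.8). In A/J the 5 libraries held 0, 4.08, 6.32, 12.8 and 15.8 CPM, and the library at 0, from male cortex titled low, held 1099 counts of Ly6c1. In C57BL/6J, DBA/2J, 129S1/SvImJ and WSB/EiJ no library exceeded 1.24 CPM or 8 counts. All CAST/EiJ libraries lay above all others, and the NOD/ShiLtJ libraries lay above those of the 4 strains with little or no Ly6c2.

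All 6 C57BL/6J and all 6 WSB/EiJ libraries held at most 2 and 1 counts of Ly6c2. Against 3 counts in each C57BL/6J library, Ly6c2 was at least 149.8-fold higher in CAST/EiJ, at least 30.4-fold higher in NOD/ShiLtJ and at least 14.7-fold higher in A/J. The shallower WSB/EiJ libraries allowed bounds of 65.8-fold, 13.4-fold and 6.45-fold. CAST/EiJ, NOD/ShiLtJ and A/J each differed from each of the 4 remaining strains, with adjusted p between 4.3e-12 and 0.00462 in these 12 pairs. The differences among these 3 did not pass the test, with a log2 difference of 2.30 between CAST/EiJ and NOD/ShiLtJ (SE 0.81, adjusted p = 0.57) and of 3.34 between CAST/EiJ and A/J (SE 0.91, adjusted p = 0.0817). Unlike for Ly6c1, the strain test among long-inbred strains alone passed for Ly6c2 (adjusted p = 4.2e-05), where 0.832% of genes did.

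Because of their shared sequence, the share of Ly6c2 in the summed counts of Ly6c1 and Ly6c2 was computed per library. It was 16.7 to 34.5% in the 6 CAST/EiJ libraries (median 29.9%). In the NOD/ShiLtJ libraries it was 1.17 to 6.27% (median 2.52%), and in the 5 A/J libraries 0 to 3.29%. It was at most 0.173% in C57BL/6J, 0.125% in DBA/2J and 0.546% in 129S1/SvImJ. The lowest CAST/EiJ library (female hippocampus, 952 of 5710 counts) had an exact binomial 95% interval of 15.7 to 17.7%, and the highest NOD/ShiLtJ library (male cortex titled low) one of 5.23 to 7.44%. In WSB/EiJ only the 2 female libraries reached 20 summed counts, both without a Ly6c2 count, which left upper limits of 11.2 and 10.9%. These intervals cover counting error only.

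**Figure D2:**
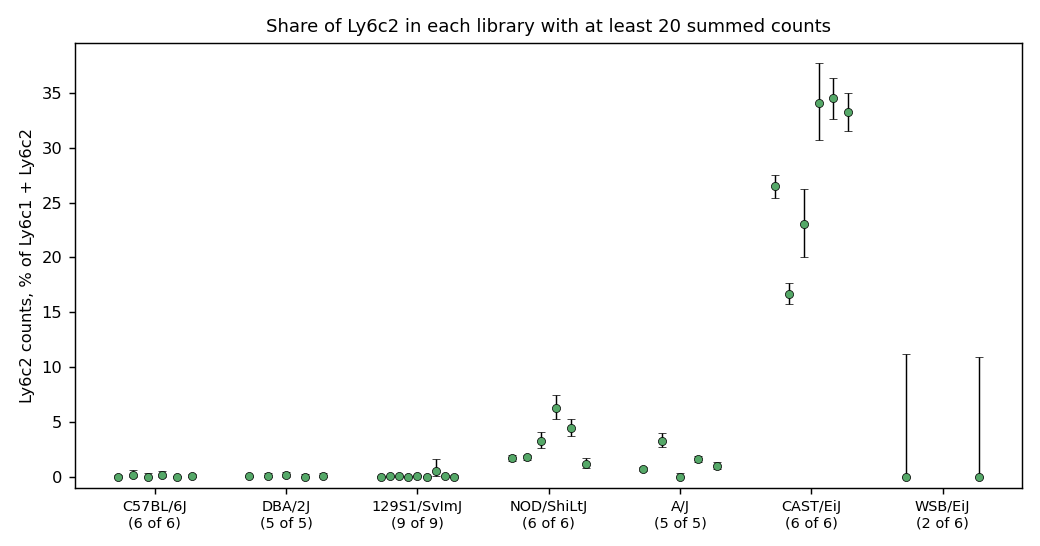
Ly6c2 counts as a percentage of Ly6c1 plus Ly6c2 counts in each library with at least 20 summed counts, by strain, with exact binomial 95% intervals. The numbers in parentheses are the libraries shown of those measured. The 6 CAST/EiJ libraries lie between 16.7 and 34.5% and the highest of any other strain is at 6.27%.

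The mean share was 21% over 8 libraries of wild-derived strains and 0.86% over 31 of long-inbred strains, a difference of 20.1 percentage points (two-sided exact permutation test over libraries, p = 8.58e-06). The wild-derived value combined 6 CAST/EiJ libraries at 28 ± 7.25% (SD) with the 2 WSB/EiJ libraries that reached 20 summed counts, at 0%, and without CAST/EiJ the difference was -0.86 percentage points. This p treats libraries of a strain as replicates of its origin. With the 7 strain means permuted instead, the difference was 13.1 percentage points and the exact permutation p was 0.286, where 0.0476 is the smallest that 21 splits allow. With the counts of both genes added, the log2 difference of wild-derived against long-inbred libraries was -1.59 (adjusted p = 0.0577).

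Ly6a was highest in C57BL/6J, DBA/2J and 129S1/SvImJ and lowest in CAST/EiJ and A/J. The mean was 194 ± 109 CPM in C57BL/6J (SD, n = 6), 186 ± 60.1 in DBA/2J (n = 5) and 160 ± 71.3 in 129S1/SvImJ (n = 9). WSB/EiJ followed with 114 ± 40 CPM (n = 6), NOD/ShiLtJ with 83.0 ± 19.6 (n = 6), A/J with 59.3 ± 22.3 (n = 5) and CAST/EiJ with 54.2 ± 22.9 (n = 6). The DBA/2J libraries, at 132, 139, 170, 208 and 279 CPM, did not overlap with the A/J libraries, at 29.5, 46.9, 58.3, 78.4 and 83.4 CPM, nor with CAST/EiJ, at 17.4 to 79.2 CPM (median 57.5). Libraries of C57BL/6J (63.1 to 350 CPM, median 186) and of 129S1/SvImJ (71.5 to 250 CPM, median 175) overlapped with both.

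CAST/EiJ was lower than C57BL/6J by a log2 difference of 1.84 (SE 0.35, adjusted p = 0.000453), lower than DBA/2J by 1.77 (SE 0.36, adjusted p = 0.00166) and lower than 129S1/SvImJ, where the difference was -1.56 (SE 0.32, adjusted p = 0.00184). A/J was lower than the same 3 strains, with differences from 1.43 to 1.71 and adjusted p from 0.0114 to 0.0388. NOD/ShiLtJ and WSB/EiJ stood between, and neither differed from any other strain beyond the threshold. The strain test held among the long-inbred strains alone (adjusted p = 0.0031). It was lost with cortex libraries only (adjusted p = 0.451) and with female libraries only (adjusted p = 0.524), fits on 21 and 16 libraries.

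Ly6e varied least. Its strain means ran from 202 ± 73.7 CPM in CAST/EiJ (SD, n = 6) to 499 ± 190 in C57BL/6J (n = 6), with 290 ± 61.9 in NOD/ShiLtJ, 336 ± 185 in 129S1/SvImJ, 344 ± 86.6 in A/J, 361 ± 149 in WSB/EiJ and 435 ± 126 in DBA/2J. Neighbours in this order overlapped in every case. CAST/EiJ against C57BL/6J was the 1 pair to pass, at a log2 difference of -1.30 (SE 0.30, adjusted p = 0.00989). The strain test for Ly6e passed under 7 of 16 alternative settings, with adjusted p from 0.000402 to 0.848 over all of them.

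Between wild-derived and long-inbred strains, Ly6c1 was lower and Ly6c2 higher in the wild-derived group. Ly6c1 averaged 101 ± 107 CPM (SD, n = 12) against 421 ± 162 (n = 31), a log2 difference of -2.05 (SE 0.43, adjusted p = 0.00386). Ly6c2 averaged 39.8 ± 47.9 against 4.52 ± 7.75 CPM, a log2 difference of 3.15 (SE 0.74, adjusted p = 0.0128). Of all genes tested 0.749% passed in this comparison, 0.508% higher and 0.24% lower in wild-derived strains. Ly6a (84.2 ± 44.1 against 140 ± 82.2 CPM, log2 difference -0.73, SE 0.26, adjusted p = 0.292) and Ly6e (281 ± 139 against 376 ± 157 CPM, log2 difference -0.42, SE 0.20, adjusted p = 0.663) did not pass.

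These group values joined unlike strains. Without WSB/EiJ, where 0.98% of genes passed, the log2 difference of Ly6c1 was -1.11 (adjusted p = 0.00422) and that of Ly6a was -1.39 (adjusted p = 0.0302). Without CAST/EiJ, where 0.895% passed, the log2 difference of Ly6c1 was -6.74 (adjusted p = 8.9e-16), and that of Ly6c2 turned to -5.85 and lost its call (adjusted p = 0.236). Ly6c2 also lost its call in DESeq2 (log2 difference 3.08, adjusted p = 0.0898, 1.36% of genes passing) and without CAST/EiJ replicate 5 or 6. With counts summed per strain, which left 2 wild-derived against 5 long-inbred values, neither Ly6c1 nor Ly6c2 passed (both adjusted p = 0.833). The effect of origin did not differ between regions or sexes for any of the 4 genes beyond the threshold, with adjusted p of 0.913 or higher, where 0 (0%) and 6 (0.0206%) of 29120 genes passed. For Ly6e the origin difference was -0.85 in male (adjusted p = 0.0259, 0.447% of genes passing) and 0.19 in female libraries (adjusted p = 0.841, 0.207% passing), and the difference between these effects was 1.08 (SE 0.37, unadjusted p = 0.00463 in edgeR, adjusted p = 0.913).

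No difference of a Ly6 gene by region or sex passed the threshold. Hippocampus against cortex gave log2 differences of 0.12 for Ly6a, 0.17 for Ly6c1, -0.16 for Ly6c2 and 0.19 for Ly6e, with SE from 0.18 to 0.79, unadjusted p of 0.298 or higher and adjusted p of 0.716 or higher in edgeR (0.0755% of genes passed). Means of log2(CPM + 1) were higher in hippocampus in 4 of 7 strains for Ly6a, Ly6c2 and Ly6e and in 3 of 7 for Ly6c1. For Ly6e in A/J the mean in CPM went the other way, at 347 in hippocampus and 339 in cortex. Female against male gave 0.25 for Ly6a, -0.08 for Ly6c1, -0.94 for Ly6c2 and -0.09 for Ly6e, with SE from 0.18 to 0.82, unadjusted p of 0.255 or higher and adjusted p of 0.519 or higher in edgeR (2.85% of genes passed). Means of log2(CPM + 1) were higher in female libraries in 6 of 7 strains for Ly6a, in 4 of 7 for Ly6c1 and Ly6e and in 1 of 7 for Ly6c2. The Ly6c2 tallies by region and by sex include C57BL/6J, DBA/2J, 129S1/SvImJ and WSB/EiJ, where no library exceeded 8 counts. For Ly6c2 the sex difference passed with edgeR's default dispersion (-1.11, adjusted p = 0.0138) and turned to 5.61 with the share of ribosomal-like counts as a covariate (adjusted p = 0.0103, 0.226% of 26057 genes passing). That share had medians of 3.12% in female and 18.7% in male libraries, so its effect and that of sex are hard to tell apart. Ly6c2 was also at 3 counts or fewer in 23 of 43 libraries.

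Among the 27 male libraries, Ly6e was higher in those titled high. The 14 libraries titled high held 232 to 729 CPM (median 385) and the 13 titled low 119 to 438 CPM (median 249). The log2 difference was 0.79 (SE 0.17, adjusted p = 0.00741), where 1.06% of 27529 genes passed and 0.294% in this direction. Ly6a, with medians of 121 and 73.4 CPM, had a log2 difference of 0.85 (SE 0.26, adjusted p = 0.103). Ly6c1, with medians of 467 and 265 CPM, had one of 0.75 (SE 0.46, adjusted p = 0.651), and Ly6c2 one of 0.64 (SE 0.83, adjusted p = 0.752).

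Within 13 matched pairs of male libraries of the same strain and region, Ly6a and Ly6e were higher in the library titled high in 13 of 13, as were 0.142% of all genes tested. Ly6c1 was higher in 12 of 13, a count reached by 0.69% of genes, and was at 0 in both WSB/EiJ hippocampus libraries of the remaining pair. The WSB/EiJ cortex pair, 1 of the 12, rested on 3 against 2 counts. Of the 11 pairs with more than 3 counts of Ly6c1 in a library, it was higher in 11. For Ly6c2, 7 of the 13 pairs held 3 or fewer counts in both libraries, and of the other 6 it was higher in 4 and lower in 2. The largest Ly6a difference was in CAST/EiJ hippocampus (79.2 against 17.4 CPM) and the largest Ly6e difference in C57BL/6J hippocampus (729 against 262 CPM). With strain and region in the model, Ly6a (log2 difference 0.81, adjusted p = 0.00171) and Ly6c1 (0.75, adjusted p = 0.000197) passed beside Ly6e, in a fit on 24452 genes of which 2.25% passed.

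**Figure D3:**
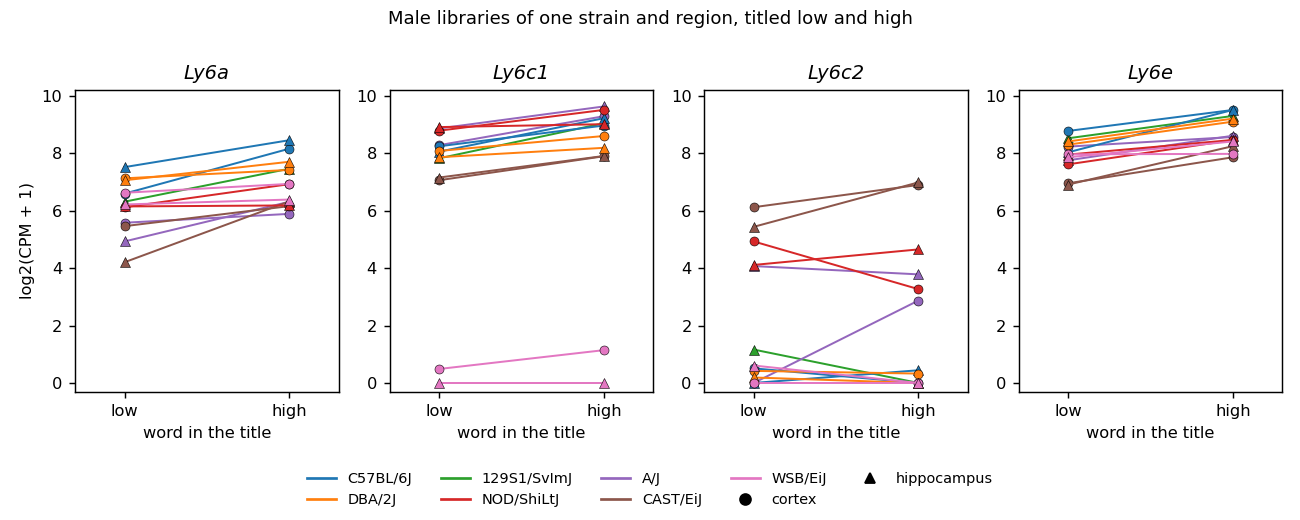
Level of each Ly6 gene in male libraries of the same strain and region titled low and high, as log2(CPM + 1). Each line is 1 of 13 pairs, coloured by strain, with circles for cortex and triangles for hippocampus. Lines for Ly6a and Ly6e rise in 13 of 13 pairs, and 7 of the 13 Ly6c2 lines join libraries with 3 or fewer counts.

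Other markers moved with the title word in the same male libraries. Of 10 endothelial markers Cldn5 (log2 difference 0.96) and Slco1a4 (0.55) were higher and Erg (-0.60) was lower in libraries titled high, and their summed level was 9723 to 14930 CPM (median 13099) against 10417 to 12712 CPM (median 11463). Of 6 pericyte markers Rgs5 (-0.82) and of 6 astrocyte markers Aldoc (-1.12) and Slc1a2 (-0.88) were lower. Snap25 of the neuronal markers was also lower. The summed pericyte markers had a median of 3391 CPM in libraries titled high and 6177 CPM in those titled low, and the summed astrocyte markers 3138 and 5065 CPM. Rgs5 had a median of 3465 CPM over all 43 libraries, beside 4189 CPM for the pericyte sum. The other pericyte markers did not pass. In libraries titled high Kcnj8 (0.70), Vtn (0.67), Pdgfrb (0.38) and Higd1b (0.14) were higher and Abcc9 (-0.08) was lower. The part of these markers in the result was not tested.

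Other members of the Ly6/uPAR family were measured beside the 4 genes. Of 44 listed Ly6/uPAR genes 39 were in the table and 26 passed the filter on low counts, of which 2 (Ly6c1 and Ly6c2) passed the origin test and 5 the strain test, where 0.749% and 2.68% of all genes did. Of the 22 tested genes beyond the 4, 0 passed the origin test in edgeR (3 at an unadjusted p under 0.05) and 2 the strain test. Their median log2 difference between wild-derived and long-inbred strains was -0.82, beside -0.38 over all genes tested. The genes beyond the 4 that passed the strain test were Cd59a, which encodes an inhibitor of complement (adjusted p = 0.0198), and Gpihbp1, which carries lipoprotein lipase across capillary endothelium (adjusted p = 0.00751). Cd59a averaged 56.8 ± 20.3 CPM in NOD/ShiLtJ (SD, n = 6) and 46.9 ± 35.6 in C57BL/6J (n = 6), and 11.2 to 25.9 CPM in the 5 other strains. Gpihbp1 had a median of 2.55 and a highest value of 46.8 CPM in the 5 DBA/2J libraries, and a median of 0 in each other strain.

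**Figure D4:**
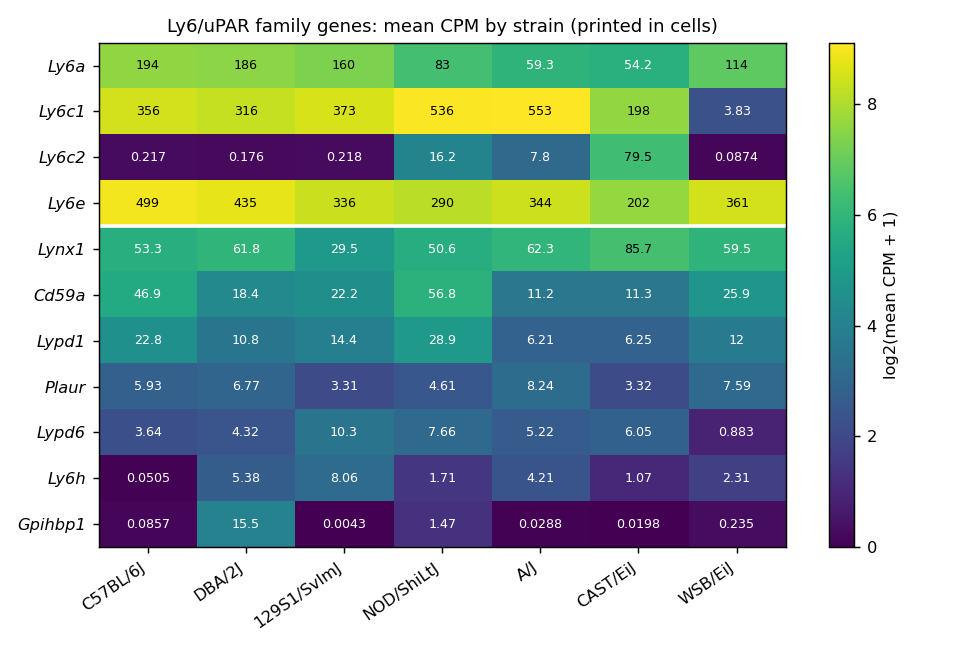
Mean CPM by strain of the Ly6/uPAR genes with a mean of at least 1 CPM or past a test of origin or strain, printed in each cell and coloured as log2(mean CPM + 1). The 4 upper rows are the genes followed here. The WSB/EiJ cell of Ly6c1 reads 3.83 and the CAST/EiJ cell of Ly6c2 reads 79.5.

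Lynx1, a modulator of nicotinic receptors that lies in the same stretch of chromosome 15, averaged 55.4 CPM and did not pass (origin log2 difference 0.58, adjusted p = 0.571). Lypd1 (14.7 CPM), Lypd6 (5.80 CPM), Plaur (5.43 CPM), which encodes the urokinase receptor, and Ly6h (3.52 CPM) did not pass either test. Within 250 kb of the start of one of the 4 genes the annotation and the table shared 44 genes. Of these 18 passed the filter, and Ly6c1 and Ly6c2 were the 2 that passed the origin test. Of the other Ly6 genes there, Ly6d and Ly6g had 0 counts in all 43 libraries together, Ly6f had 2, Ly6i had 92, of which 8 were in WSB/EiJ, and Ly6k had 173, none of them in WSB/EiJ. Ly6k was also at 0 CPM in C57BL/6J, 129S1/SvImJ, NOD/ShiLtJ and A/J, and averaged 0.238 CPM in DBA/2J and 1.91 CPM in CAST/EiJ.

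Of 45 interferon-related genes, all of which passed the filter, 5 passed the origin test and 11 the strain test, where 0.749% and 2.68% of all genes did. H2-D1 (log2 difference -1.78, adjusted p = 1.6e-05), B2m (-0.88, adjusted p = 0.0231) and Ifitm3 (-0.87, adjusted p = 0.0368) were lower in wild-derived strains, and Jak1 (0.70, adjusted p = 0.0062) and Mx2 (2.16, adjusted p = 0.0238) were higher. H2-D1 and B2m encode the chains of class I histocompatibility molecules, Ifitm3 encodes an antiviral protein and Jak1 a kinase of cytokine receptors. Mx2 is annotated as a polymorphic pseudogene. The median of the 45 was -0.44, beside -0.38 over all genes. In the comparison by title word 0 of the 45 passed in edgeR (9 at an unadjusted p under 0.05), and their median was 0.45 beside 0.04 over all genes. Of 28 tested genes of GPI anchor synthesis and attachment, 0 passed the origin, strain or title test in edgeR (1, 1 and 1 gene at an unadjusted p under 0.05), and the smallest unadjusted p in the origin comparison was that of Pgap1 (log2 difference 1.53, unadjusted p = 0.0206 and adjusted p = 0.526 in edgeR).

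The genes with the pattern closest to each Ly6 gene were found by Pearson correlation of log2(CPM + 1) over 43 libraries among 10649 genes with a mean of at least 5 CPM. For Ly6c1 these were Entpd1 (r = 0.90), Fmo1 (r = 0.88) and Zfp738 (r = 0.82), which averaged 10.1, 0.855 and 0.113 CPM in WSB/EiJ and at least 76.9, 22.3 and 11.4 CPM in each other strain. For Ly6c2 they were Nlrp1a (r = 0.84), Abcb1b (r = 0.81) and Selenop (r = 0.80), which had their highest strain mean in CAST/EiJ, at 46.3, 20.4 and 3200 CPM. For Ly6a they were Rassf1 (r = 0.67), Ly6e (r = 0.63) and Lyrm1 (r = 0.62), and for Ly6e Slc22a8 (r = 0.71), Rnf213 (r = 0.69) and Eps15l1 (r = 0.68). Between the 4 genes, r was -0.64 for Ly6a with Ly6c2, 0.63 for Ly6a with Ly6e and 0.25 for Ly6c1 with Ly6c2. Libraries of a strain share their genotype, so these values do not rest on 43 independent points. How much of each value lay between the 7 strains and how much within them was not tested.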

How the data were processed

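Endothelial RNA was measured by stranded, rRNA-depleted RNA sequencing of 43 sorted samples. The authors aligned single-end reads to mm10 with HISAT2 2.1.0 and SAMtools 1.9 and deposited raw gene counts from featureCounts (Subread 1.4.4), per the submitters' processing notes and the study's methods. The handling of multi-mapped reads is not given in the sources used here. Libraries held 1626534 to 49372356 counts, so 3 counts, the limit a count of 0 allows, is worth more CPM in shallow libraries.

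Here, a gene was kept if 1 or more libraries reached 0.5 CPM, and counts were scaled by TMM and tested with edgeR 4.0.16 (R 4.3.3; quasi-likelihood F test, trended dispersion, bias-adjusted deviances, no covariates), two-sided, with Benjamini-Hochberg adjustment at 0.05 over all tested genes. This dispersion setting, the 4 genes and all lists were chosen with earlier results of these data known. Groups came from the labels, and all strains shared the spread in the pairwise tests. The Ly6c2 share was tested with an exact permutation test over libraries; its minimum of 20 summed counts was set after the counts were seen. Named genes were the 4 genes, family genes with a mean of at least 1 CPM or a call, up to 3 interferon and GPI anchor genes per direction by smallest p, the 3 genes most alike, and genes called within 250 kb. A single gene named for its values was chosen after they were seen. Sequences came from GENCODE and RefSeq, and coding parts were aligned with MAFFT. Oligodendrocyte markers are not reported here. The steps were tested on simulated data. Alternatives included DESeq2 1.42.0, other filters, scalings and covariates, and each library or strain left out.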

Additional observations from a re-analysis of the deposited data

Results flagged for a closer look

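Of 28 combinations of a gene and a strain examined for a library standing apart (by Dixon's ratio on log2(CPM + 1)), 1 did, about as many as chance alone gives at 1 in 20. Ly6c2 in 129S1/SvImJ replicate 7, a male hippocampus library titled low, was at 1.24 CPM, which rested on 3 counts, and the other 8 libraries of the strain were between 0 and 0.174 CPM. No origin effect on the 4 genes differed between sexes or regions beyond the threshold.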

How the results depend on the processing

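Values are log2 differences unless named as adjusted p. For Ly6c1 by origin the direction held under 22 alternatives (-6.74 to -1.11), and the call was lost with cortex only (-1.996), hippocampus only (-2.12), female only (-1.76), the counts of both Ly6c genes summed (-1.59) and counts summed per strain (-1.97). For Ly6c2 by origin it was lost with cortex (3.57), hippocampus (2.75), female (3.93) or male libraries only (2.83), without 129S1/SvImJ (2.67), C57BL/6J (2.85) or DBA/2J (2.87), with counts summed per strain (3.18) and in DESeq2 (3.08), and the sign turned without CAST/EiJ (-5.85) and for the summed genes (-1.59). Ly6a by origin passed with edgeR's default dispersion (-0.81) and without WSB/EiJ (-1.39). Ly6e by origin passed in male (-0.85) and turned in female libraries (0.19).

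By strain, adjusted p for Ly6a rose to 0.451 in cortex and 0.524 in female libraries, and that for Ly6c1 to 0.38 among long-inbred strains, an alternative chosen after seeing the data. Ly6e passed with DESeq2 size factors (adjusted p = 0.0269), no filter (0.0122), default dispersion (0.000402), sex and region as covariates (0.0376), male libraries (0.000627), without WSB/EiJ (0.0443, chosen after seeing the data) and in DESeq2 (0.0227). Ly6c2 passed under all 17 alternatives.

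By region, where no call was made, signs turned for Ly6a without C57BL/6J (-0.024) and for Ly6c2 with strain and sex as covariates (0.14), without CAST/EiJ (0.53) and for the summed genes (0.16). By sex, signs turned for Ly6a with the ribosomal-like share as covariate (-1.08) and titled high only (-0.081), for Ly6c1 with strain and region as covariates (0.27), hippocampus only (0.12), without A/J (0.00039) and without C57BL/6J (0.032), and for Ly6e in hippocampus (0.059) and without 129S1/SvImJ (0.14). Ly6c2 by sex passed with default dispersion (-1.11) and turned with the ribosomal-like share (5.61).

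By title word, Ly6e passed in all 15 alternatives. Ly6a passed with default dispersion (0.84) and strain and region as covariates (0.81), and Ly6c1 with these (0.75 and 0.75) and without WSB/EiJ (0.71). Ly6c2 turned with the ribosomal-like share (-1.24), strain and region as covariates (-0.080) and without CAST/EiJ (-0.40). The Ly6c2 share difference was 23.5 points over libraries with at least 1 summed count, -0.86 points without CAST/EiJ and 13.1 points over strain means, where it lost its call (exact permutation p = 0.286), all chosen after seeing the data. For each of these changes the cause was not tested.

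With each library left out, Ly6c2 by origin ran from 2.84 to 3.44 and lost its call without CAST/EiJ replicate 5 or 6, Ly6e by strain from adjusted p = 0.0365 to 0.196 (passing without C57BL/6J replicate 3 or 129S1/SvImJ replicate 3, 5 or 9), Ly6a by region from -0.0071 to 0.22, Ly6c2 by region from -0.89 to 0.43, Ly6c1 by sex from -0.19 to 0.0098, Ly6a by title word from 0.69 to 0.99 (passing without C57BL/6J replicate 3) and Ly6c2 by title word from -0.034 to 1.23. The remaining results kept direction and call. No paired analysis was possible because the labels do not tie libraries to mice, so that pairs could be matched on strain and region alone. Ly6c2 was at 3 counts or fewer in 23 of 43 libraries, as was Ly6c1 in male WSB/EiJ, and differences among such libraries were not detectable. Fits with the ribosomal-like share or with strain and region as covariates left out genes whose fitted counts ran far past the observed ones.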
